A study of Drosophila melanogaster with 3 samples.

Results

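The CPR family of *Drosophila melanogaster* is the group of structural cuticle proteins that carry the Rebers and Riddiford consensus, a stretch that binds chitin. Its members were taken by symbol, as genes named *Cpr* with a cytological position, *Ccp84A*, *Lcp*, *Edg*, *Acp65A* or *Pcp*, where a spot on the array carried exactly 1 gene symbol. That gave 42 genes on 43 spots, of 8247 genes measured on all arrays. RNA of wild-type embryos injured with a laser was hybridised together with RNA of uninjured embryos on each of 3 arrays, here A, B and C, with wounded embryos in Cy5 and unwounded embryos in Cy3 each time. The labels give no embryo age, no time after wounding, and nothing on whether each hybridisation used its own collection of embryos, so the p-values cover the spread among 3 hybridisations, which may be technical, and nothing wider.

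An array gave 1 ratio of the colours per spot, shown here as log2 of the deposited ratio with its minus sign removed, so that 0 is an equal signal in both colours. A positive value is a high ratio, and 3 values in a row stand for arrays A, B and C in that order. Which embryos stand on top of the ratio is not stated: the series title names wounded embryos before unwounded ones and the array titles do the reverse. The words high and low therefore refer to the ratio and not to wounding. The dyes were placed the same way each time, so dye and wounding cannot be told apart at any spot. In RNA of whole embryos, fewer cells of a type and less RNA per cell cannot be told apart either.

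The cuticle is an extracellular coat of chitin and protein that the epidermis secretes at its apical face, and in the embryo it forms late, before the larva hatches. CPR proteins bind the chitin fibres, and different sets of them are made for the larval, pupal and adult cuticles and for different body regions. Many of the genes lie in tandem arrays that arose by duplication, and most are named for their cytological band. A wound in the embryonic epidermis breaks this barrier and is followed by repair of epithelium and cuticle.

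As a family the CPR genes had no common direction. The 42 genes had a median log2 ratio of 0.04 (A), −0.11 (B) and 0.13 (C), beside −0.0037, 0.01 and −0.0072 for all 8247 genes. Of the 42, 22 were positive on A, 14 on B and 28 on C. The median of the means over 3 arrays was 0.07, from −0.61 for *Cpr72Ea* to 0.74 for *Ccp84Ag*, and 26 of the 42 means were positive.

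**Figure D1:**
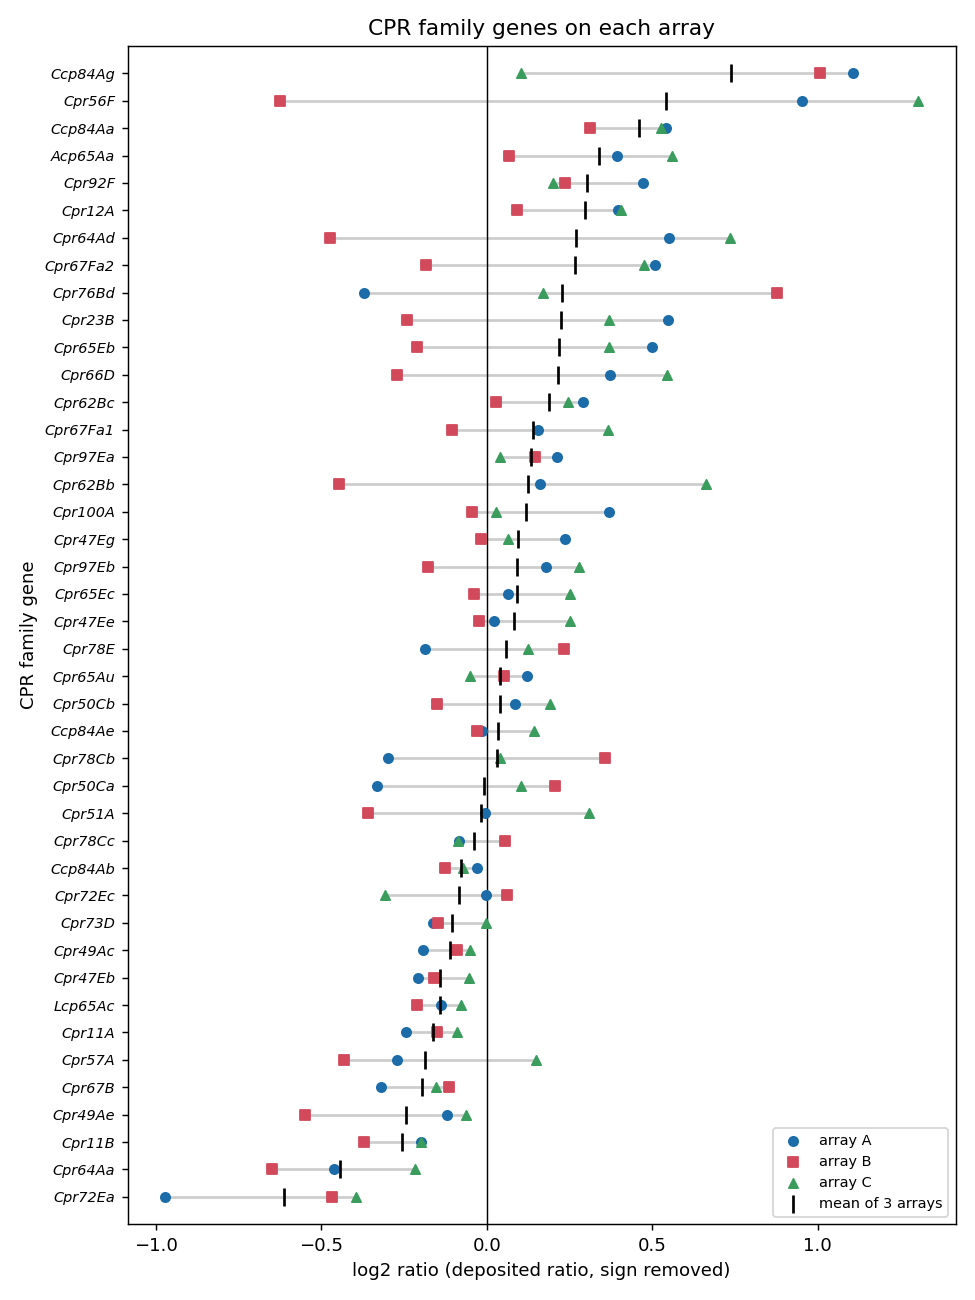
Log2 ratio (x axis) of each of the 42 CPR genes (y axis, ordered by mean) on arrays A, B and C, with the mean of 3 arrays as a vertical tick and a grey line over the range. *Ccp84Ag* has the highest mean (0.74) and *Cpr72Ea* the lowest (−0.61), and many genes near the top have array B to the left of 0 and arrays A and C to the right.

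Of the 42 genes, 1 had a high ratio at an adjusted p of 0.05 and 0 had a low ratio, in limma over all gene means with Benjamini-Hochberg adjustment. Over all 8247 genes 0.497% were high and 1.47% low, and a single call among 42 (2.38%) says little about the family. In the same limma fit 11 of the 42 (26.2%), 6 high and 5 low, had an unadjusted p under 0.05, and 18.4% of all genes did. On single spots 0 of 43 passed, where 1.55% of all spots did. At a limma adjusted p of 0.10, 3 of the 42 (7.14%) passed, as did 5.24% of all genes.

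The gene past the threshold was *Ccp84Aa*, of the cuticle protein cluster named for its band, which had 0.54 (A), 0.31 (B) and 0.53 (C). All arrays lay on the same side, and array B was the lowest. The mean was 0.46 ± 0.13 (SD, n = 3), a ratio of 1.38 (limma adjusted p = 0.0436). Its spot is a clone of the RH library, whose genes had a median of 0.12 over the 419 measured from that library alone. With the library's median removed on each array the mean was 0.39 and the call was lost (limma adjusted p = 0.0799). It was lost too on single spots (limma adjusted p = 0.0516) and with repeat spots left out of gene means (limma adjusted p = 0.0501). Leaving out array A, B or C gave limma adjusted p of 0.221, 0.0801 and 0.108.

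The other measured genes of the cluster did not repeat the value of *Ccp84Aa*. *Ccp84Ag* had 1.11 and 1.01 on arrays A and B, and 0.10 on array C. Its mean, 0.74 ± 0.55 (SD, n = 3), ranked 6 from the top of all 8247 genes but did not pass (limma adjusted p = 0.133), with array C far below the other two. *Ccp84Ae* had −0.01 (A), −0.03 (B) and 0.14 (C), close to 0 throughout. *Ccp84Ab*, the neighbour of *Ccp84Aa*, had −0.03, −0.13 and −0.07, a mean of −0.08 ± 0.05 (SD, n = 3), so the neighbours lay on opposite sides of 0 on each array. Spots are cDNA clones, and close copies within the family can share target. How alike the sequences of these neighbours are was not measured here.

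Apart from the *Ccp84A* genes, 5 members were positive on all arrays. *Acp65Aa*, named for a protein of the adult cuticle, had 0.39 (A), 0.07 (B) and 0.56 (C), with a mean of 0.34 ± 0.25 (SD, n = 3; limma adjusted p = 0.161). *Cpr92F* had 0.47, 0.24 and 0.20, and a mean of 0.30 ± 0.15 (SD, n = 3; limma adjusted p = 0.109). *Cpr12A* had 0.40, 0.09 and 0.40, and a mean of 0.30 ± 0.18 (SD, n = 3; limma adjusted p = 0.140). Of these 3, *Acp65Aa* and *Cpr12A* had their lowest value on array B and *Cpr92F* on array C. *Cpr62Bc* had 0.29, 0.03 and 0.25, and *Cpr97Ea* 0.21, 0.15 and 0.04. In all 7 of 42 genes (16.7%) were positive on every array, and 20.7% of all genes were. *Ccp84Aa*, *Acp65Aa*, *Cpr92F* and *Cpr97Ea* are on RH clones. From that library 4 of 9 CPR genes, and 179 of all 419 genes, were positive on every array. With each library's median removed the mean was 0.27 for *Acp65Aa*, 0.23 for *Cpr92F* and 0.06 for *Cpr97Ea*.

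Negative on every array were 11 of the 42 (26.2%), and 21.2% of all genes, so neither share lay far from that of all genes. *Cpr72Ea* had −0.97 (A), −0.47 (B) and −0.39 (C). Its mean of −0.61 ± 0.31 (SD, n = 3), a ratio of 0.655, ranked 35 from the bottom of all genes and did not pass (limma adjusted p = 0.0702). *Cpr64Aa* had −0.46 (A), −0.65 (B) and −0.22 (C), a mean of −0.44 ± 0.22 (SD, n = 3; limma adjusted p = 0.0762). In both genes every array lay at or below −0.22. With array weights, which gave array B the least weight, *Cpr72Ea* and *Cpr64Aa* joined *Ccp84Aa* past the threshold (limma adjusted p = 0.0410 and 0.0477). That made 3 of 42 genes (7.14%), where 4.79% of all genes passed.

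The remaining members below 0 on every array were closer to it. *Cpr11B* had −0.20 (A), −0.37 (B) and −0.20 (C) (mean −0.26; limma adjusted p = 0.112), and *Cpr49Ae* had −0.12, −0.55 and −0.06 (mean −0.24; limma adjusted p = 0.296). In both genes array B was the lowest. *Cpr67B* had −0.32, −0.11 and −0.15, and *Cpr11A* had −0.24, −0.15 and −0.09. The larval cuticle protein gene *Lcp65Ac*, the only *Lcp* gene measured, had −0.14, −0.21 and −0.08, a mean of −0.14 ± 0.07 (SD, n = 3; limma adjusted p = 0.274). *Cpr47Eb*, *Cpr49Ac* and *Cpr73D* had means of −0.14, −0.11 and −0.10.

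What the family did show was disagreement between arrays. The SD over 3 arrays had a median of 0.21 for the CPR genes and 0.10 for all genes. Of the 42 genes, 24 (57.1%) lay above the SD that 75% of all genes stay under (0.161), and 16 (38.1%) above the SD that 90% stay under (0.247). Across the 42 genes Pearson's r was 0.70 and Spearman's rho 0.71 for A with C, 0.18 and 0.07 for A with B, and −0.13 and −0.02 for B with C. Across all 8247 genes Pearson's r for these pairs was 0.50, 0.36 and 0.21. These are descriptions across genes, which are not independent replicates, and genes of a tandem array may share target. All genes of an array also share its hybridisation and normalization. This measure, and the counts on array B in the next paragraphs, were chosen after the values were seen.

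The most frequent sign pattern was above 0 on A and C but below 0 on B, in 14 of the 42 genes (33.3%), beside 10.9% of all genes. The widest was *Cpr56F*, with 0.95 (A), −0.63 (B) and 1.30 (C). Its SD of 1.03 ranked 7 from the top of all 8247 genes, and its mean of 0.54 did not pass (limma adjusted p = 0.476). *Cpr64Ad* had 0.55, −0.47 and 0.74, an SD of 0.65. *Cpr62Bb* had 0.16, −0.45 and 0.66, an SD of 0.56. In each of the 3, array C was the highest and array B the lowest.

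*Cpr66D* (0.37, −0.27 and 0.55), *Cpr23B* (0.55, −0.24 and 0.37), *Cpr65Eb* (0.50, −0.21 and 0.37) and *Cpr67Fa2* (0.51, −0.18 and 0.48) repeated the pattern on a smaller scale. In these 4 genes arrays A and C differed from each other by less than either differed from array B. *Cpr67Fa1*, the neighbour of *Cpr67Fa2*, had 0.15, −0.10 and 0.37, and *Cpr97Eb* had 0.18, −0.18 and 0.28. In the remaining 5 of the 14 genes array B had −0.02 for *Cpr47Eg*, −0.02 for *Cpr47Ee*, −0.04 for *Cpr65Ec*, −0.04 for *Cpr100A* and −0.15 for *Cpr50Cb*. *Cpr47Ee* was measured by a clone and a re-amplified spot of it. The clone had 0.25 (A), 0.05 (B) and 0.18 (C), and the repeat spot −0.20, −0.10 and 0.33, so that spots of 1 clone differed in sign on arrays A and B. Neither spot had the pattern by itself, so *Cpr47Ee* counts among the 14 genes only through the mean of both spots.

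**Figure D2:**
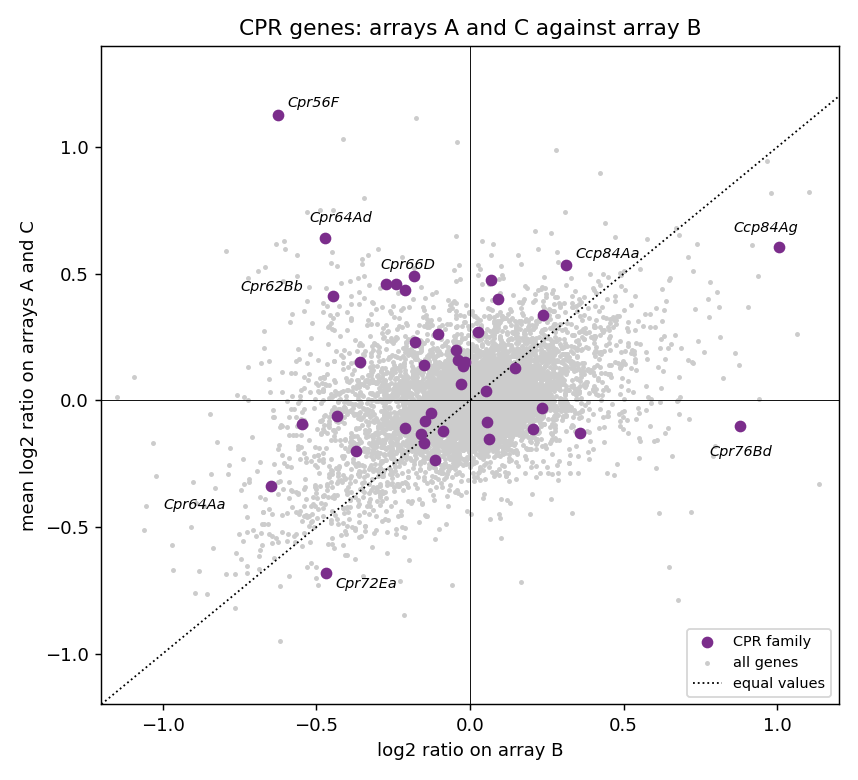
Mean log2 ratio on arrays A and C (y axis) against the log2 ratio on array B (x axis) for the CPR genes (large points) and all genes (small points), with a dotted line where both are equal; 12 genes lie outside the axes. *Cpr56F* and *Cpr64Ad* stand at the upper left and *Cpr76Bd* at the lower right. *Ccp84Aa* and *Ccp84Ag* stand at the upper right, where array B and the mean of arrays A and C are both above 0.

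By size, 8 of the 42 genes (19.0%) had a mean of arrays A and C more than 0.5 above array B on the log2 scale, and 2.86% of all genes did. They were *Cpr56F* (difference 1.75), *Cpr64Ad* (1.12), *Cpr62Bb* (0.86), *Cpr66D* (0.73), *Cpr23B* (0.70), *Cpr67Fa2* (0.67), *Cpr65Eb* (0.65) and *Cpr51A* (0.51). *Cpr56F* ranked 5 among all genes by this difference. The opposite difference, array B more than 0.5 above, was found for 1 of the 42 genes, *Cpr76Bd*, and for 1.26% of all genes. *Cpr76Bd* had −0.37 (A), 0.88 (B) and 0.17 (C).

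The family held 10 other members of mixed sign, *Cpr76Bd* among them. *Cpr78Cb* had −0.30 (A), 0.36 (B) and 0.04 (C), *Cpr50Ca* −0.33, 0.21 and 0.10, and *Cpr78E* −0.19, 0.23 and 0.12. In these 3, as in *Cpr76Bd*, array A was the lowest and array B the highest. *Cpr51A* had −0.0043, −0.36 and 0.31, and *Cpr57A* −0.27, −0.43 and 0.15, both with array C alone above 0, as in *Ccp84Ae*. *Cpr72Ec* had −0.0029, 0.06 and −0.31, *Cpr78Cc* −0.08, 0.06 and −0.09, and *Cpr65Au* 0.12, 0.05 and −0.05. The means of these 10 genes lay between −0.19 and 0.23.

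Without array B the family's median was 0.13. In limma 18 of the 42 genes (42.9%) then had an unadjusted p under 0.05, 14 of them high and 4 low. In either direction 20.2% of all genes did. None passed after adjustment, and the smallest limma adjusted p among members was 0.0801. *Cpr56F* had a mean of 1.13, *Cpr64Ad* of 0.64 and *Cpr67Fa2* of 0.49 on arrays A and C. These genes were named above for the difference of A and C from B. Leaving out array B favours genes with that difference, so the values without it are no separate result. With array A left out the family's median was 0.06, and 7 members (16.7%) had an unadjusted limma p under 0.05, beside 10.6% of all genes. With array C left out the median was 0.02, and 8 members (19.0%) did, beside 15.4% of all genes, a share near the background.

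The Tweedle genes encode another family of cuticle proteins. Of 15 measured, 12 were above 0 on A and C but below it on B, beside 10.9% of all genes. The median of the 15 Tweedle genes was 0.35 (A), −0.39 (B) and 0.54 (C). Their SD over arrays had a median of 0.50, beside 0.21 in the CPR genes. Of the CPR genes 11 of 42 (26.2%) were negative on every array, near the 21.2% of all genes. Of the 15 Tweedle genes 1 was, *TwdlP*, at −0.10, −0.13 and −0.05. The mean of arrays A and C minus array B had a median of 0.79 in the Tweedle genes, beside 0.17 in the CPR genes. No Tweedle gene passed in limma. The smallest p values were those of *Twdlbeta*, at 0.55, −0.05 and 0.75, and *TwdlW*, at 0.24, −0.06 and 0.51, each with array B below 0. The difference between both families was not tested.

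**Figure D3:**
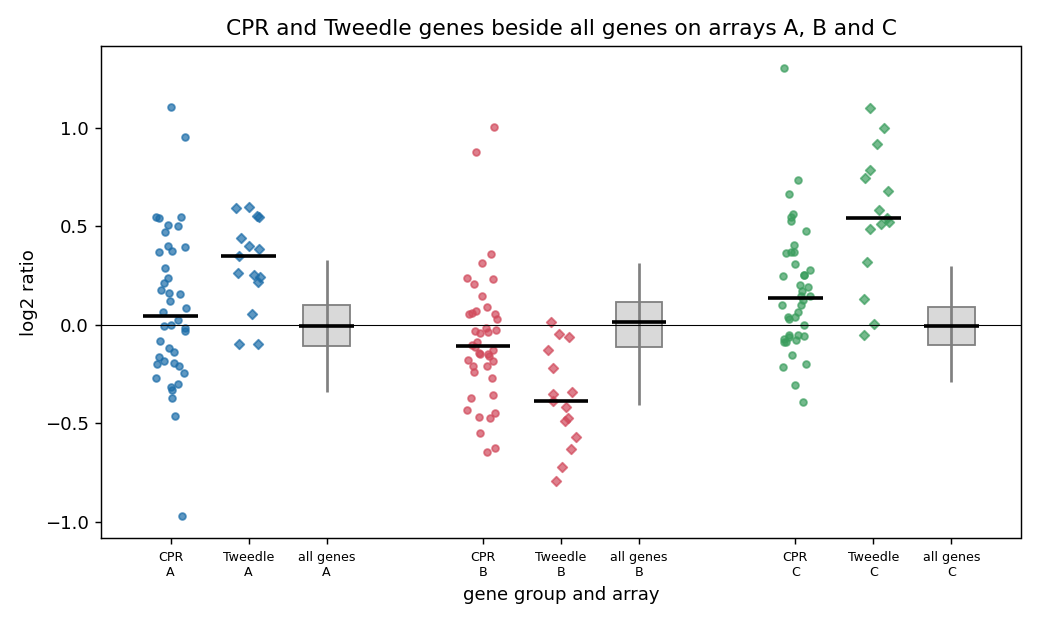
Log2 ratios (y axis) of the 42 CPR genes (circles), the 15 Tweedle genes (diamonds) and all 8247 genes (box from the first to the last quartile, line from the 5th to the 95th percentile) on each array (x axis), with a black bar at each median. The CPR median is 0.04 (A), −0.11 (B) and 0.13 (C), and the Tweedle median 0.35, −0.39 and 0.54.

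Position on the chromosome was set beside the values, using gene order in RefSeq's annotation (assembly Release 6 plus ISO1 MT). Members with at most 3 other genes between them were called neighbours. No source used here names the array's own build, so no coordinates are printed. Of the 42 genes 20 lie on chromosome arm 3L, 10 on 2R, 8 on 3R, 3 on X and 1 on 2L. The median of the means was 0.08 on 3L, −0.01 on 2R, 0.13 on 3R and −0.16 on X, and the gene on 2L, *Cpr23B*, had 0.23. Neighbourhoods with 2 or more measured members numbered 12 and held 28 genes, while 13 of the 42 had no other family gene near.

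Neighbours were not uniform. On 3L *Cpr64Aa* and *Cpr64Ad*, in a group of 4 genes, had means of −0.44 and 0.27, with both negative on array B (−0.65 and −0.47) and apart on arrays A and C. *Cpr72Ea* and *Cpr72Ec*, in a group of 3, had means of −0.61 and −0.08. In the large 65A group of 19 family genes on 3L, the 3 measured were *Acp65Aa* (0.34), *Cpr65Au* (0.04) and *Lcp65Ac* (−0.14). Other groups held genes of like values. *Cpr67Fa1* and *Cpr67Fa2* had means of 0.14 and 0.27 and *Cpr65Eb* and *Cpr65Ec* of 0.22 and 0.09, with A and C above 0 and B below it in each gene. *Cpr49Ac* and *Cpr49Ae* on 2R were negative on every array.

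**Figure D4:**
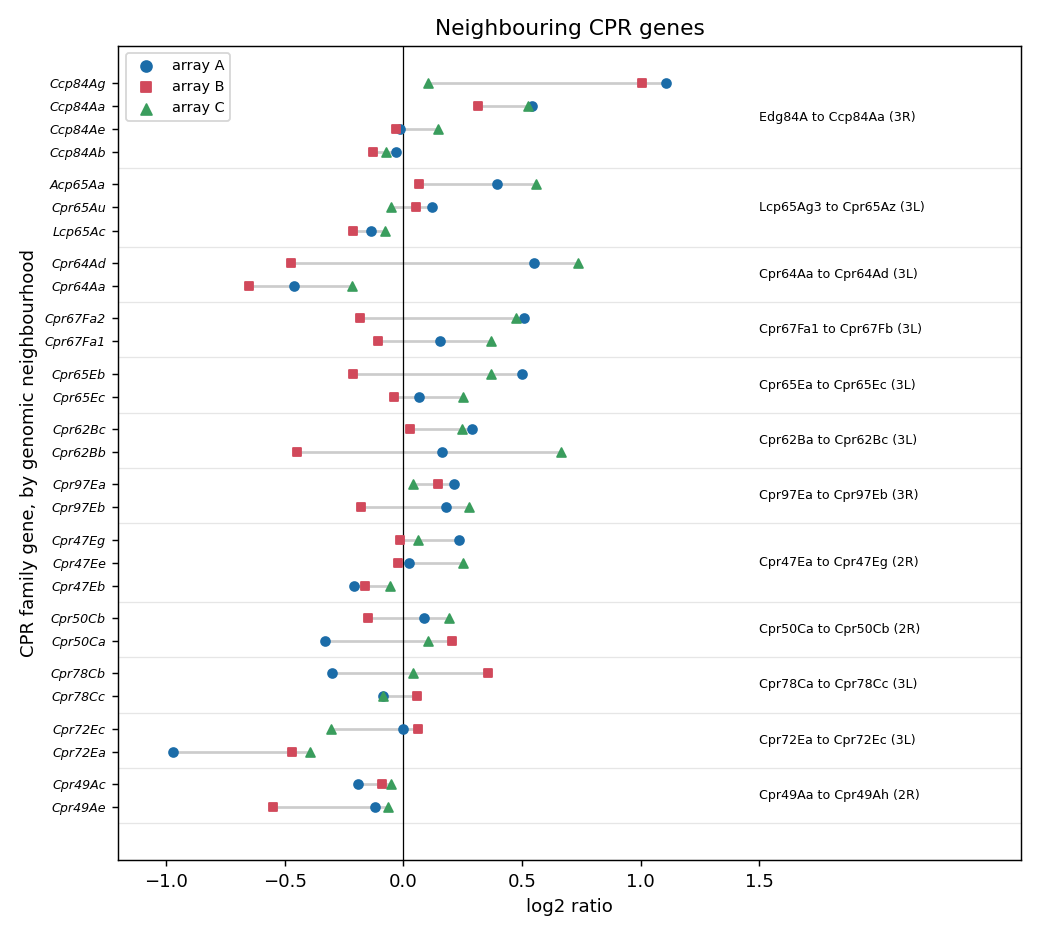
Log2 ratios (x axis) on arrays A, B and C of the 28 CPR genes (y axis) that have a measured neighbour, grouped by neighbourhood, with the first and last family gene and the chromosome arm at the right. *Ccp84Aa* and *Ccp84Ag* lie to the right of 0 and *Ccp84Ab* to its left in 1 group, while *Cpr67Fa1* and *Cpr67Fa2* both have array B to the left of 0 and arrays A and C to the right.

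Values were also set beside the cDNA library a spot came from. The RE and LD collections were made from embryos, RH and GH from adult heads, and LP from larvae and early pupae. The 19 CPR genes on RE clones had a median of the means of 0.09, the 9 on RH clones 0.13, the 5 on LP clones 0.06, the 2 on LD clones −0.03 and the 7 on GH clones −0.10. All measured genes of these libraries had medians of 0.0036 for RE, 0.12 for RH, 0.0034 for LP, −0.01 for LD and −0.04 for GH. Values above 0 on A and C with B below 0 were found in 10 of the 19 CPR genes on RE clones and 2 of the 9 on RH clones. On LP clones they were found in 1 of 5, on LD clones in 0 of 2 and on GH clones in 1 of 7. Among all genes they were found in 235 of 1463 from RE, 48 of 419 from RH and 54 of 337 from LP. For LD it was 123 of 2022 and for GH 147 of 1556. With each library's median removed the family's median was 0.05, beside 0.07, and beyond that the part of the clone library was not tested.

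Other genes of cuticle formation, from lists chosen with earlier results of these data known, had no member past the threshold in limma. Among 21 genes of chitin synthesis and modification the median of the means was 0.02. The chitin synthase gene *kkv* had 0.22 (A), 0.09 (B) and 0.06 (C), and the chitinase gene *Cht10* −0.28, −0.06 and −0.14, so each kept its sign. In 7 of the 21, A and C were above 0 and B below it, beside 14 of the 42 CPR genes and 10.9% of all genes. Among 14 genes of cross-linking and pigment the median was −0.07. *Ddc*, the dopa decarboxylase gene, had −0.13, −0.30 and −0.28, and *yellow-f2* had −0.29, −0.37 and −0.05. Both were among the 3 of 14 genes below 0 on every array, a share close to the 21.2% of all genes. The 7 measured genes of obstructor and other chitin-binding proteins had a median of 0.07, with *obst-F* at 0.21 and *obst-J* at −0.27. The 12 measured genes of epidermal regulators and apical matrix had 0.02, with *vvl* at −0.13 and *br*, an ecdysone-induced regulator, at 0.09.

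Of 26 listed markers of tissues of the embryo 18 were measured, and none passed in limma. The 6 epidermal markers had a median of −0.10 (A), −0.06 (B) and −0.09 (C), beside 0.04, −0.11 and 0.13 for the CPR genes. The smallest p values among them were those of *shg*, the E-cadherin gene, at −0.62, −0.33 and −0.22, and of *Ddc*. Both were below 0 on every array, the only 2 of the 6 that were. The means of 3 of the 6 were above 0, those of *grh* (0.06), *cora* (0.0051) and *ple* (0.20). The pattern of A and C above 0 and B below it was found in 1 of the 6, *ple*, the tyrosine hydroxylase gene, at 0.50, −0.15 and 0.24, which was picked for that pattern. The 5 haemocyte markers had −0.01 (A), 0.06 (B) and 0.07 (C), the 3 neuronal markers −0.06, −0.17 and 0.13, and the 3 tracheal markers −0.02, −0.09 and −0.28. Of smallest p in these lists were *srp* (mean 0.08) and *NimC1* (0.11) for haemocytes, *elav* (−0.55) and *nSyb* (−0.07) for neurons, and *vvl* (−0.13) and *verm* (−0.18) for trachea. *elav* had −0.54, −1.25 and 0.13, with array B far below the others. Of 5 muscle markers only *Mlc2* was measured, at 0.04, −0.32 and 0.24. A single gene does not describe the muscle, and the part of tissue make-up or embryo stage in the CPR values was not tested.

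Much of the family was outside the measurement. RefSeq's table lists 99 symbols that match the rule, 2 of them pseudogenes, and 57 were not analysed here. Of the 17 *Lcp* genes 1 was measured, of the 7 *Ccp84A* genes 4, of the 70 *Cpr* genes 36, and of the 3 *Edg* genes and *Pcp* none. On 8 further spots a member's symbol stood beside that of another gene, and these were given no gene name. Levels cannot be compared between genes, because each spot gives a ratio only.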

How the data were processed

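The deposited table holds 1 score per spot and array, 12144 rows, and every value is below 0. Array medians lie at −1.001, −1.01 and −0.997 and the highest value is −0.01, from which a negated linear ratio was inferred. No source used here names the scanner, the background correction or the normalization. RNA was extracted with Trizol and labelled through amino-allyl groups, per the labels. The sign was removed and log2 taken. Without 160 control spots, 11887 spots had a value on all arrays. Of these, 9839 had 1 gene symbol, updated by Entrez identifier through RefSeq's table. All 43 CPR spots matched. Spots of a gene were averaged.

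Gene means were fitted with an intercept in limma 3.58.1 (R 4.3.3), with Benjamini-Hochberg adjustment over 8247 genes at 0.05. The fit was tried on simulated data whose errors were independent between genes and arrays. That setting does not cover structure that genes of an array share. No spot intensities were used, so signal over background is unknown, and having 3 arrays limits the precision. Every CPR gene is reported. From other lists, members past the threshold or the 2 of smallest p are named, and any others were picked with their values in view. Members, lists and tests were chosen with earlier results of these data known. A planned description of protein and promoter sequences was not made, and no sequences are printed. Alternatives varied centring, scaling, quantile normalization, missing and floor values, moderation, array weights, older names, single spots, the linear ratio, the threshold and the arrays used. Centring by clone library, leaving out repeat spots and averaging every spot with a value were added after the data were seen.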

Additional observations from a re-analysis of the deposited data

How the results depend on the processing

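Against 1 CPR gene past the threshold, array weights and an adjusted p of 0.10 each gave 3, among 395 and 432 of all 8247 genes. The linear ratio, single spots, centred clone libraries and repeat spots left out each gave 0, and leaving out 1 array gave 0 to 0. The other alternatives gave 1, *Ccp84Aa* each time. Its limma adjusted p ran from 0.0218 with array weights to 0.221 without array A, and its log2 ratio from 0.39 to 0.53. The family's median stayed between 0.02 and 0.13 over the alternatives on the log2 scale, within the spread of the array medians (SD 0.12). Calls over all genes, 41 high and 121 low, were 29 and 95 with repeat spots left out, 145 and 250 with array weights, and 0 and 0 on the linear ratio, with centred libraries and with any array left out (1511, 1510 and 877 to 1663 genes at an unadjusted p under 0.05). Of the 42 log2 ratios, 31 kept their sign in every alternative on the log2 scale. The linear ratio was run for the count of calls alone. Quantile normalization turned *Cpr51A* (0.0096). Array weights turned *Cpr51A* (0.030), *Cpr78Cb* (−0.080) and *Cpr78E* (−0.017). With 1 array left out, 11 turned: *Cpr51A* ran from −0.18 to 0.15, *Cpr50Ca* from −0.11 to 0.15, *Cpr76Bd* from −0.10 to 0.52, *Cpr78Cb* from −0.13 to 0.20, *Cpr78E* from −0.031 to 0.18 and *Cpr62Bb* from −0.14 to 0.41. *Cpr100A* ran from −0.0084 to 0.20, *Cpr47Ee* from −0.0011 to 0.14, *Cpr50Cb* from −0.032 to 0.14, *Ccp84Ae* from −0.022 to 0.065 and *Cpr72Ec* from −0.15 to 0.029. None of these 11 passed the threshold, and the cause was not tested.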

Other observations

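Genes were ranked by the difference between the mean of arrays A and C and array B. The first 50 of 8247 genes held 3 of the 42 CPR genes and 7 of the 15 Tweedle genes. They also held 2 genes of Vajk, a further family of cuticle proteins, whose measured genes were not counted. The genes named next were picked with their values in view. *Vajk4* had 0.69 (A), −0.45 (B) and 0.81 (C), and *Vajk1* had 0.69, −0.69 and 0.33. *snsl*, a gene of the same rank range, had 0.56, −0.56 and 0.59. *ftz-f1*, which encodes a nuclear receptor that acts in the ecdysone cascade, had 0.23, −0.53 and 0.56. In all 4, A and C lay above 0 and B below it, which the ranking favours and which is no separate result. *ftz-f1* is also on the list of epidermal regulators and apical matrix. Of the 12 genes measured there it alone had this pattern, beside 10.9% of all genes. The reverse, A and C below 0 and B above it, was found in 4 of the 12. Over all genes it was found in 1121 of 8247. The first 2 places went to *grnd* and *Dcps*, which were at the floor of the table on array B (−6.64) and near 0 on arrays A and C.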
